A study of Mus musculus with 5 samples.

Results

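The 10 genes described here mark the endothelium and the endocardium, the endothelial lining of the heart. Their levels were measured by RNA-seq of the atrioventricular canal (AVC) of mouse embryos at embryonic day 12.5. The genes were chosen by name (Nfatc1, Emcn, Plvap, Cldn5, Cdh5, Pecam1, Tie1, Tek, Kdr and Icam2). All 10 were found in the expression table of 14697 transcripts, each with 1 row. The AVC lies between atria and ventricles and holds the cushions from which valves form. The series has 5 groups of 1 sample each, of which the 2 RNA groups are used here. The control, labelled WT, carried floxed Sox9 alleles (Sox9fl/fl) and no Cre. The mutant, labelled Sox9 cKO, carried the same floxed alleles with Tie2-Cre, so that both groups share the floxed alleles, and any effect of the Cre itself cannot be told apart from that of Sox9 loss. Both were on the C57BL/6 strain. The AVCs were dissected, genotyped, checked for the degree of Sox9 deletion and pooled, and duplicate libraries per genotype were merged to 1 value by the authors. There is therefore no replicate error, no test and no p-value for any comparison between genotypes, and the read depth behind the values is unknown.

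Endocardial cells of the AVC line the cushions, and some of them leave the lining by an epithelial-to-mesenchymal transition and become cushion mesenchyme. Cells that stay in the lining keep a set of surface proteins shared by endothelium in general: the junction cadherin VE-cadherin (Cdh5), the adhesion molecules PECAM-1 and ICAM-2, the receptors for VEGF (Kdr) and angiopoietins (Tek), and vascular sialomucins such as endomucin (Emcn). NFATC1 is a transcription factor that, within the heart at this stage, is known for its endocardial expression and its need in valve growth. Tie2 is another name for the product of Tek. Its regulatory sequences drive the Cre, which recombines in endothelium and endocardium, in the mesenchyme that descends from them and in blood lineages. These 10 genes therefore mark endothelial and endocardial cells of the lineage in which Sox9 was deleted. Values from whole AVC cannot be assigned to the endocardial lining alone.

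Levels are given as nFPKM, the authors' FPKM (a read density per transcript length) after a further normalization. Levels of different genes are compared below with the limit that each is 1 transcript, chosen by a rule not stated. Sox9, the deleted gene, stood at 36.7 nFPKM in WT and 14.7 nFPKM in cKO. Differences are given as the log2 ratio of cKO to WT after adding 1 to each value, minus the median of that ratio (-0.11) over the 13793 transcripts that reached 1 nFPKM in WT or cKO. This centred value is called the relative log2 ratio. In 90% of these transcripts it lay between -0.45 and 0.49. Markers of each labelled cell type were present in the WT pool. The myocardial Tnnt2 stood at 4047 nFPKM, the mesenchymal Postn at 973 nFPKM and the endothelial Cdh5 at 145 nFPKM. The AVC genes Tbx2, Tbx3 and Bmp2 stood at 20.1, 29.2 and 37.8 nFPKM.

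All of the genes were well above the minimum of 1 nFPKM in both genotypes. In WT, Cdh5 was the highest and Cldn5 the lowest, and 8 others lay between 46.2 nFPKM (Nfatc1) and 132 nFPKM (Pecam1). The genes together summed to 865 nFPKM in WT and 1048 nFPKM in cKO, 1.21 times as much. Of the 10 genes, 9 stood above the all-transcript median of the ratio, against 50.0% of all transcripts by construction, and without centring 8 were higher in cKO than in WT. Their median relative log2 ratio was 0.32, where the median of all transcripts is 0. None met a 2-fold rule (an absolute log2 ratio of at least 1 without centring), which 1.57% of all transcripts met. A smaller rule, a centred ratio of at least 1.5-fold, was met in the higher direction by Emcn and Plvap, where 3.44% of all transcripts met it. It was met in the lower direction by Cldn5, where 2.82% did. Since so few transcripts met the 2-fold rule, its absence among 10 genes says little about them. Emcn and Cldn5 stood at opposite ends of their range, with relative log2 ratios of 0.82 and -0.59. Emcn stood higher than 98.6% of all transcripts and Cldn5 higher than 2.74%.

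**Figure D1:**
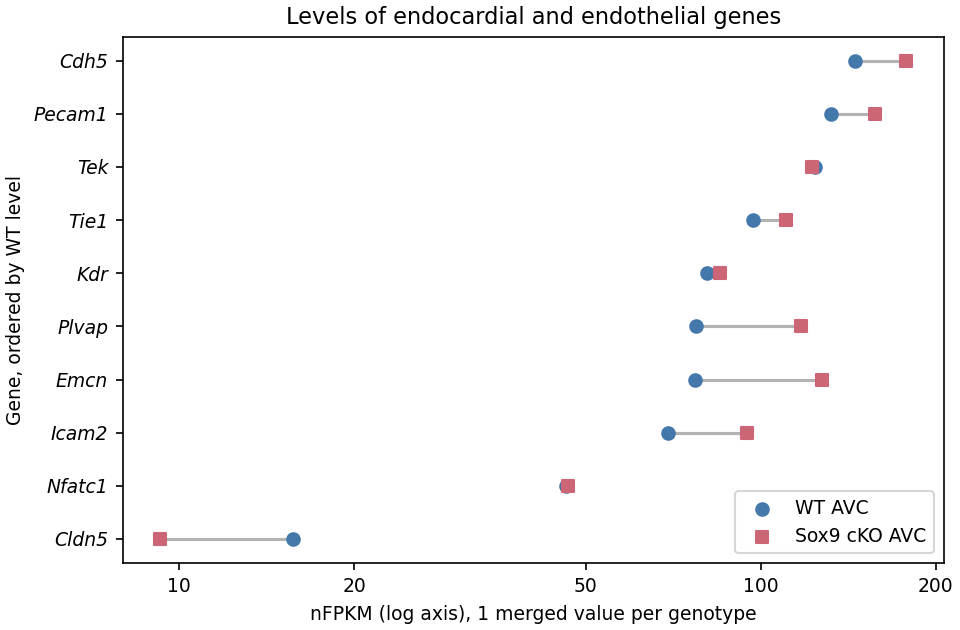
Level of each gene in nFPKM on a log axis, with circles for WT AVC and squares for Sox9 cKO AVC, 1 merged value per genotype and no error bars. Emcn (77.1 to 128 nFPKM) and Plvap (77.4 to 117 nFPKM) lie to the right in cKO, Cldn5 (15.7 to 9.28 nFPKM) lies to the left, and the symbols of Tek and Nfatc1 nearly coincide.

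A pair of surface glycoproteins of endothelium showed the largest differences towards cKO. Emcn encodes endomucin, a sialomucin of the endothelial surface. It stood at 77.1 nFPKM in WT and 128 nFPKM in cKO, 1.65 times as much, with a relative log2 ratio of 0.82. That ratio was higher than in 99.1% of the 2886 transcripts whose mean level lay within 2-fold of that of Emcn. Plvap encodes the protein that forms the diaphragms of endothelial caveolae and fenestrae. It stood at 77.4 nFPKM in WT and 117 nFPKM in cKO, 1.52 times as much, with a relative log2 ratio of 0.70, higher than in 98.9% of 3028 transcripts of like level. The genes were almost equal to each other in WT, at 0.997 Emcn per Plvap, and close in cKO, at 1.09. Icam2, an adhesion molecule of endothelium that platelets and leukocytes also carry, came next. It stood at 69.2 nFPKM in WT and 94.7 nFPKM in cKO, with a relative log2 ratio of 0.55. That ratio was just short of the 1.5-fold rule (0.58 on the log2 scale) and higher than in 98.1% of 3592 transcripts of like level.

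Cldn5, which encodes claudin-5, the main tight junction claudin of endothelium, went the other way. It stood at 15.7 nFPKM in WT and 9.28 nFPKM in cKO, 0.591 times as much. Its relative log2 ratio of -0.59 was just past the 1.5-fold rule and lower than in 97.2% of 4231 transcripts of like level. It was the lowest of the 10 genes in both genotypes, and ratios scatter more at its level. In transcripts of like level 90% of the relative ratios ran from -0.46 to 0.48, while for those of the level of Emcn they ran from -0.28 to 0.40. With a pseudocount of 5, or centred on transcripts of like level, Cldn5 stood at -0.45 and -0.58 and no longer met the rule.

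VE-cadherin and PECAM-1, which join endothelial cells to each other, were the most abundant of the genes in both genotypes. Cdh5 stood at 145 nFPKM in WT and 178 nFPKM in cKO, with a relative log2 ratio of 0.39. Pecam1, also carried by platelets and leukocytes, stood at 132 and 157 nFPKM, with a relative log2 ratio of 0.35. They kept nearly the same proportion, 0.910 Pecam1 per Cdh5 in WT and 0.883 in cKO. Both lay inside the range that holds 90% of all transcripts, and neither met the 1.5-fold rule.

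The receptors showed smaller ratios than these adhesion genes. Tie1, an orphan receptor kinase that pairs with TIE2, stood at 96.8 nFPKM in WT and 111 nFPKM in cKO, a relative log2 ratio of 0.30. Kdr, which encodes the VEGF receptor VEGFR2, stood at 80.9 and 85.0 nFPKM (0.18). Tek, the angiopoietin receptor, stood at 124 and 123 nFPKM. Its relative log2 ratio was 0.09, and without centring its log2 ratio was -0.02, so that its direction depended on the centring. The level of Tek per Tie1 was 1.28 in WT and 1.11 in cKO.

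Nfatc1, the only transcription factor among the genes, stood at 46.2 nFPKM in WT and 46.7 nFPKM in cKO. Its relative log2 ratio was 0.12, and 25.4% of the 5142 transcripts of like level stood higher. The level of this endocardial factor in cKO was thus close to that in WT, and per Cdh5 it was 0.318 in WT and 0.263 in cKO.

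**Figure D2:**
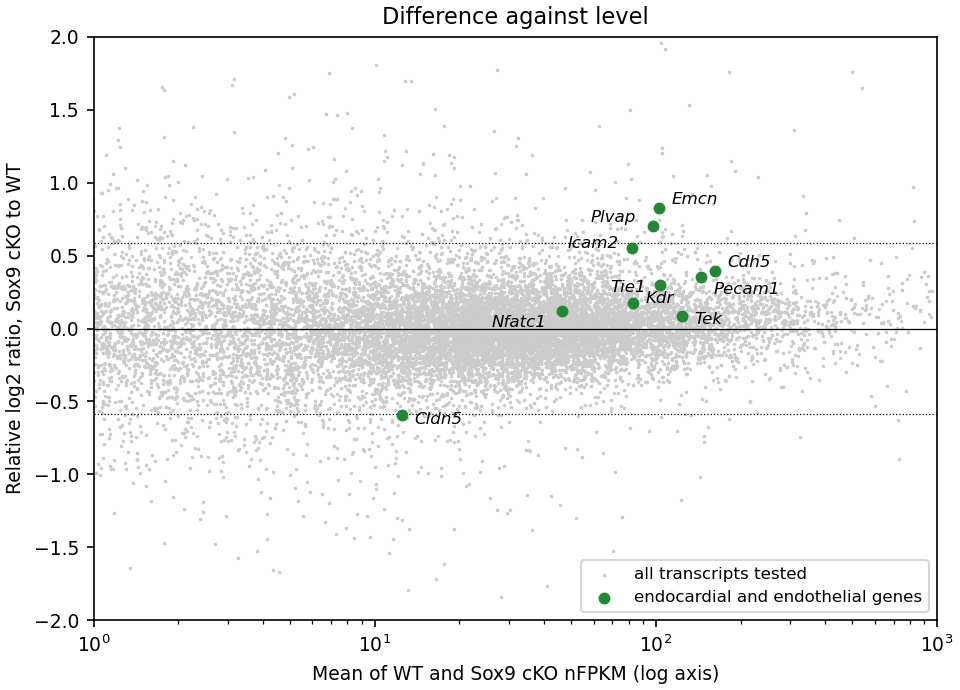
Relative log2 ratio of Sox9 cKO to WT against the mean of both values in nFPKM (log axis), with all transcripts in grey and the described genes in green. The solid line is the all-transcript median and dotted lines mark 1.5-fold; transcripts outside the axis ranges are not drawn. Emcn and Plvap lie above the upper dotted line, Cldn5 lies on the lower one, and 7 genes lie between the lines.

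Proportions within a genotype do not depend on how the libraries were scaled to each other. Emcn and Cldn5 were paired as the genes with the highest and lowest relative log2 ratio, so their contrast is the largest by choice. Emcn stood at 4.91 times the level of Cldn5 in WT and at 13.7 times in cKO, a difference of 1.49 on the log2 scale. Per Kdr, the level of Emcn differed by 0.66 and that of Plvap by 0.53 on the log2 scale, both higher in cKO. Relative to Cdh5, the level of Cldn5 was 0.108 in WT and 0.0522 in cKO, that of Emcn 0.531 and 0.718, and that of Tek 0.854 and 0.689. As a share of the sum of all the genes, Emcn made up 8.92% in WT and 12.2% in cKO. The share of Tek went from 14.3% to 11.7%, and that of Cdh5 was 16.8% in WT and 17.0% in cKO. In the order of levels Emcn moved from place 7 in WT to place 3 in cKO and Kdr from place 5 to place 8, while Cdh5, Pecam1, Nfatc1 and Cldn5 kept their places. Levels of some neighbours in this order, such as Emcn and Plvap in WT, were within a few percent of each other, and no replicate spread is available to separate them. Whether the differences from WT were unequal among the genes beyond such a spread was not tested.

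**Figure D3:**
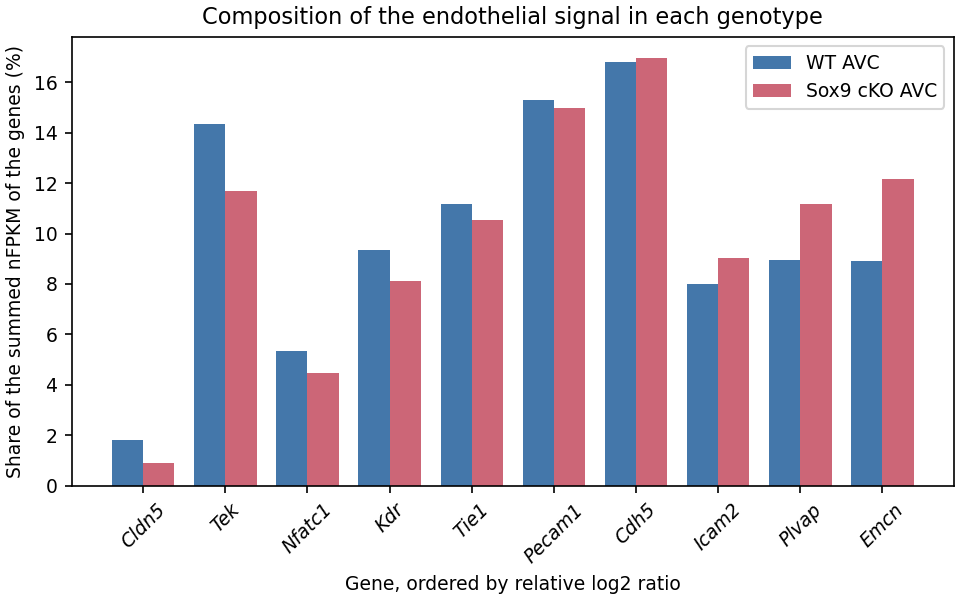
Share of each gene in the summed nFPKM of the described genes, in percent, for WT AVC and Sox9 cKO AVC, ordered by relative log2 ratio. The shares of Tek (14.3% and 11.7%) and Cldn5 are smaller in cKO, those of Plvap and Emcn (8.92% and 12.2%) are larger, and that of Cdh5 is nearly the same.

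The sequence before the transcription start is shown for the genes at both ends of the range, Emcn and Cldn5, and for Tek, whose regulatory region drives the Cre. The RefSeq promoter table (build GRCm38.p6) held 5 of the 10 genes, these and Tie1 and Kdr. Each run below is the 250 bases before the start, 5′ to 3′ on the strand of the gene, which is the plus strand for these genes. They lie at chr3:137340828-137341077 (Emcn), chr4:94739039-94739288 (Tek) and chr16:18776597-18776846 (Cldn5). Capitals mark the core GGAA, or TTCC on the other strand, that ETS factors such as ERG and FLI1 recognise.
Emcn: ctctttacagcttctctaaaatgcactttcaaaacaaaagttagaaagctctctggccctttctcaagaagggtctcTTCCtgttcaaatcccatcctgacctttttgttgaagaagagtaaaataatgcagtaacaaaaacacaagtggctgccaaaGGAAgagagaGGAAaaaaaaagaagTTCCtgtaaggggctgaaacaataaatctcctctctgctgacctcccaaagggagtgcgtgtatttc
Tek: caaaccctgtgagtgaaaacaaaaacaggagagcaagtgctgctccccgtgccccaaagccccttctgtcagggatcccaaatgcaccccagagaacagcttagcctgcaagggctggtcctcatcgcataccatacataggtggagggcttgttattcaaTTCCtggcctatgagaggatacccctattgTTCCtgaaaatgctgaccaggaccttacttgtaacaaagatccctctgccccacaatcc
Cldn5: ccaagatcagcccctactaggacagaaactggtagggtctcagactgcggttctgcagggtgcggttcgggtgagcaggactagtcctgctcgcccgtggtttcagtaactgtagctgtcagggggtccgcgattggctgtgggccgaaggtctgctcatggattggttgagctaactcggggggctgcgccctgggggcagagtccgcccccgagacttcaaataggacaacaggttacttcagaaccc
The core occurred at 4 places in the window of Emcn, 2 in Tek and 0 in Cldn5, and at 7 in Tie1 and 4 in Kdr. Of 32851 promoter windows of the same length, 93.4% held it at least once, with a median of 3 places, and 6.55% did not hold it. The letters ACAAAG, a core recognised by SOX proteins, occurred once on either strand in Tek, beginning 26 bases before the start and apart from its ETS cores. They were not in the windows of the other 4 genes, and 16.5% of all windows held them. The GATA letters AGATAA were in none of the 5 windows and in 9.99% of all windows. These matches are descriptions of the letters in the windows, and no binding data were joined to them.

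Other endothelial genes mostly stood above the all-transcript median, by smaller amounts. All 35 listed genes passed the minimum level, 27 stood above that median (23 were higher in cKO without centring), and their median relative log2 ratio was 0.21 (0.11 without centring). None met the 1.5-fold rule in either direction. The highest were Cd93, a surface glycoprotein of endothelium (118 nFPKM in WT and 158 nFPKM in cKO, 0.53), and the VEGF receptor Flt1 (29.4 and 38.6 nFPKM, 0.49). The lowest were Clec14a, an endothelial lectin-type receptor (40.8 and 30.5 nFPKM, -0.30), and the secreted Egfl7 (97.7 and 82.8 nFPKM, -0.13). The ETS factors Erg and Fli1 stood at 0.10 and -0.04. The summed level of this list was 1913 nFPKM in WT and 1994 nFPKM in cKO, 1.04 times as much. Emcn, Plvap and Icam2 each had a larger ratio than every gene of that list, and Cldn5 a lower one. Bulk values do not show which cells the levels of that list come from.

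Genes with a known endocardial pattern or role showed a like median with a wider range. Of 14 listed genes 12 stood above the all-transcript median, and the list median was 0.23 (0.12 without centring). The 1.5-fold rule was met in the higher direction by 3 of them, where 3.44% of all transcripts met it. In WT these stood no higher than Cldn5, a level at which ratios scatter more. Nrg1, the neuregulin that endocardium sends to the myocardium, stood at 7.10 nFPKM in WT and 13.7 nFPKM in cKO (0.97). Edn1, the peptide endothelin-1, stood at 15.7 and 25.3 nFPKM (0.76), and Tmem100, a transmembrane protein of endothelium, at 7.03 and 10.9 nFPKM (0.68). The lowest were the protease gene Tll1 (3.62 and 2.45 nFPKM, -0.32) and the flow-responsive factor Klf2 (33.9 and 28.7 nFPKM, -0.13). Npr3, a natriuretic peptide receptor strongly expressed by endocardium, stood at 89.8 and 112 nFPKM (0.43).

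NFATC1 is activated by calcineurin, a phosphatase, and one of its targets is the calcineurin inhibitor Rcan1. Rcan1 stood at 149 nFPKM in WT and 220 nFPKM in cKO, a relative log2 ratio of 0.67, against 0.12 for Nfatc1 itself. Which cells the Rcan1 values come from cannot be told in bulk tissue, and NFATC1 activity was not measured. Rcan1 was the only one of the 11 listed genes of this pathway that met the 1.5-fold rule in the higher direction. The family member Nfatc4 met it in the lower direction, with 27.1 and 13.1 nFPKM (-0.89). The catalytic subunits Ppp3ca and Ppp3cb stood at 0.14 and -0.10. The list median was 0.14, or 0.04 without centring.

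Among ligands and partner receptors of Kdr, Tek and Tie1, the largest differences were in VEGF ligands. Bulk values do not show which cells these ligands come from. Vegfa, the main ligand of VEGFR2, stood at 103 nFPKM in WT and 200 nFPKM in cKO, a relative log2 ratio of 1.05. Figf, which encodes VEGF-D, stood at 14.8 and 4.46 nFPKM (-1.43) and was the only one of the 12 listed genes to meet the 2-fold rule without centring. Vegfc stood at -0.11, so that the level of Vegfa per Vegfc was 3.24 in WT and 7.33 in cKO. The level of Kdr per Flt1, 2 receptors for VEGF-A, was 2.75 in WT and 2.20 in cKO. Among the angiopoietins, Angpt1, the activating ligand of TIE2, stood at 52.1 and 44.2 nFPKM (-0.13), and Angpt2 at 3.11 and 2.40 nFPKM (-0.17). Ptprb, the phosphatase that acts on TIE2, stood at 0.37. The list median was 0.21 (0.11 without centring); Flt1, Flt4 and Ptprb are also in the list of other endothelial genes.

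Partners of claudin-5 and VE-cadherin at the junction stood nearer to the median. Of 14 listed genes, 9 stood above the all-transcript median, and the list median was 0.12 (0.02 without centring). The catenins that bind cadherins stood at -0.09 (Ctnnb1), -0.04 (Ctnna1) and 0.11 (Ctnnd1). In WT their levels were 701, 354 and 246 nFPKM, against 145 nFPKM for Cdh5. Bulk values do not show which cells they come from, so these ratios cannot be read as endothelial. The junction adhesion molecule Jam3 was lowest (53.6 and 38.4 nFPKM, -0.37), followed by Jam2 (-0.13). Ocln, a tight junction protein, met the 1.5-fold rule (1.53 and 2.98 nFPKM, 0.76). Next came Cgn (0.968 and 1.11 nFPKM, 0.20), which reached the minimum of 1 nFPKM in cKO only. Of 14 other claudins listed, 7 were found and 5 passed the minimum. Cldn12, at 25.1 nFPKM in WT and 25.9 nFPKM in cKO (0.15), stood above Cldn5 in both genotypes, and the others found stood below Cldn5 in both. Cldn11, at 9.68 and 6.06 nFPKM, had a relative log2 ratio of -0.49, and Cldn3, at 0.705 and 1.78 nFPKM, one of 0.81. Cldn3 also reached the minimum in cKO only, so the direction of its ratio and that of Cgn follow in part from the minimum. Of the caveola and lipid uptake genes, listed beside Plvap, none of 9 met the 1.5-fold rule and the median was 0.06 (-0.05 without centring). Cav1, the main caveola coat protein, stood at 133 and 103 nFPKM (-0.27), Fabp4 at -0.37, Sdpr at 0.34 and Gpihbp1 at 0.34.

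Markers of other cell types also differed between the pools. All 11 cushion mesenchyme markers stood below the all-transcript median, with a list median of -0.89, and their summed level was 2939 nFPKM in WT and 1718 nFPKM in cKO. Papss2 and Lum were lowest (-2.90 and -1.80), and Vcan (-0.03) and Snai2 (-0.53) highest. All 11 erythroid genes found stood above it (1.13), or 10 without centring, and their sum went from 41086 to 93214 nFPKM. Hbb-bh1 and Hba-x were highest, Epor and Klf1 lowest (0.07 and 0.51). Of 10 epicardial markers 8 stood above it (0.64), with Krt19 (1.13) and Lrrn4 (0.90) highest and Tcf21 (-0.40) and Tbx18 (-0.17) lowest, and their sum was 329 and 416 nFPKM. The 10 cardiomyocyte markers had a median of -0.03 and a sum of 35754 and 36056 nFPKM, with Actc1 (0.43) and Pln (0.19) highest and Myh6 (-0.49) and Tnni1 (-0.13) lowest. The 5 genes of the AVC region had a median of -0.49, from Bmp2 (-0.64) to Msx2 (0.20). No marker found was at 0 in either pool. Y-linked Ddx3y (4.26 and 35.2 nFPKM) and Xist (175 and 71.6 nFPKM) also differed between the pools. The part of these differences in the endothelial values was not tested. In pooled bulk tissue, a different share of endothelial cells and a different amount of RNA per endothelial cell cannot be told apart. A different mix of endocardium and other endothelium cannot be told apart from these either.

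Pecam1, Tek and Icam2 are also expressed by blood cells that Tie2-Cre marks. Markers of platelets and macrophages mostly stood lower in cKO, while the erythroid genes stood above the all-transcript median (list median 1.13). The part of blood cells in the values of the described genes was not tested. All 9 platelet and megakaryocyte markers stood below the all-transcript median (-0.20), and their sum was 169 nFPKM in WT and 137 nFPKM in cKO. Itga2b (-0.02) and Gp1ba (-0.10) were highest, and Ppbp stood at -0.33. Of 12 macrophage markers 8 stood below it (-0.15), with sums of 199 and 169 nFPKM. Ptprc (-0.31) and Lyz2 (-0.27) were lowest, and Cd68 (0.48) and C1qa (0.23) highest. Without Pecam1, Tek and Icam2, the median of the 7 genes that remained was 0.30, and 6 of them stood above the all-transcript median.

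**Figure D4:**
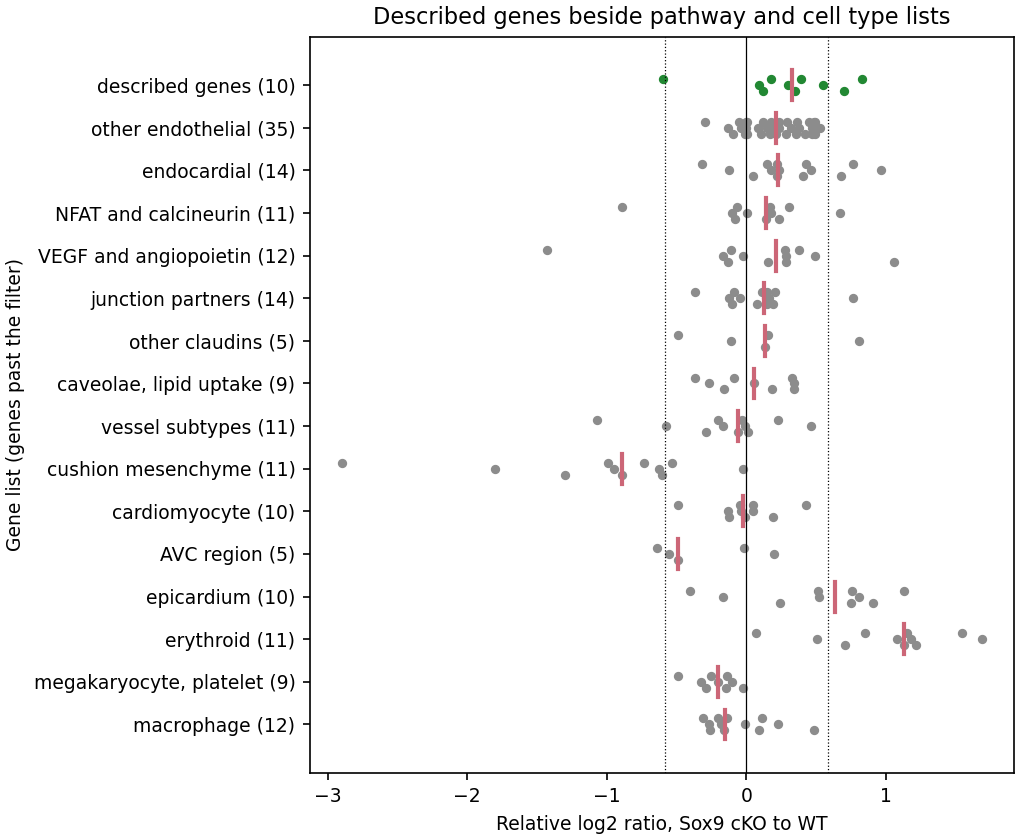
Relative log2 ratio of Sox9 cKO to WT for each gene (points, spread vertically for visibility) of the described genes (green) and of 15 other lists (grey), with the number of genes past the minimum level in brackets, list medians as red bars, the all-transcript median as a solid line and 1.5-fold as dotted lines. The described genes (median 0.32) lie between the cushion mesenchyme (-0.89) and erythroid (1.13) lists, near the other endothelial (0.21) and endocardial (0.23) lists.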

How the data were processed

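RNA-seq of WT and Sox9 cKO AVC (1 merged value each) was used. TopHat2, Cufflinks, edgeR and build mm9 are named, without role or version, in the submitters' processing notes. The deposited FPKM values were normalized further by the authors (nFPKM) by a step not given in the sources used here. They also deposited a log2 fold change. No counts were available, so depth is unknown, and no tests or intervals were possible.

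Ratios were computed with a pseudocount of 1, which understates differences at low levels, and centred on their median; 904 transcripts under 1 nFPKM in both pools were left out. Like level means a mean nFPKM within 2-fold. Each gene is represented by 1 RefSeq transcript in the table, chosen by a rule that no source states. The members and 15 further gene lists were chosen with earlier results of these data known, and support nothing by their direction. Named genes are all members, Sox9, Xist and Ddx3y, the 2 highest and 2 lowest of most lists, and ligands, partners or inhibitors of a member; others (Tmem100, Tnnt2, Postn, Erg, Fli1, Npr3, Cldn11, Cldn12) were named after their values were seen. A gene that the rule names is not reported here. ChIP-seq peaks were not joined to genes, since positions in mm9 were not used here. Python 3.11.15, numpy 2.4.6, pandas 2.3.3 and matplotlib 3.10.9 were used, and the ratio and counting steps were tested on simulated data. The closing section gives the alternatives tried.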

Additional observations from a re-analysis of the deposited data

How the results depend on the processing

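With 1 merged value per genotype, no replicate could be left out, and depth limits could not be set. No paired analysis was possible because each genotype has 1 merged value. Alternatives were pseudocounts of 0.1 and 5, other minimum levels, other centrings, the authors' deposited log2 fold change, rescaling without globin genes, summing transcripts of a symbol, protein-coding transcripts only, and leaving out Pecam1, Tek and Icam2. Centring on transcripts of like level was chosen after seeing the data. The median of the genes was 0.32 and lay between 0.29 and 0.33 under all of these except without centring, where it was 0.22 by construction. The number at least 2-fold different was 0 and the number at least 1.5-fold higher was 2 in each alternative that was run. The number at least 1.5-fold lower was 1, and was 0 with a pseudocount of 5 and 0 with centring on transcripts of like level. In the authors' deposited table, with no centring, Emcn stood at 0.83, Cldn5 at -0.62 and Tek at 0.09. Of the single genes, Tek changed sign, to -0.02 without centring.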

Other observations

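Genes used as markers of endothelial subtypes did not follow the described genes as a list. Of 11 arterial, venous, coronary and lymphatic markers 3 stood above the all-transcript median, and their median relative log2 ratio was -0.06 (-0.16 without centring). Aplnr, the apelin receptor, stood at 30.3 nFPKM in WT and 12.9 nFPKM in cKO (-1.07), and Nr2f2, a venous and atrial transcription factor, at 32.4 and 19.8 nFPKM (-0.57). Apln, the ligand of Aplnr, stood at 7.27 and 9.59 nFPKM (0.46), and Prox1, a lymphatic factor that cardiomyocytes also express, at 33.6 and 36.7 nFPKM (0.23). The arterial genes Gja4 (-0.20), Gja5 (-0.16) and Efnb2 (-0.03) were picked with their values in view. Gja5 stood at 158 nFPKM in WT, above Cdh5 at 145 nFPKM. Bulk values do not show which cells Gja5 or the others of this list come from, so the list median cannot be read as endothelial. Of these 11 genes, Aplnr alone met the 2-fold rule without centring.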
